A study of Mus musculus with 18 samples.

Results

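Gene expression in 2 populations of conventional dendritic cells (cDC) of the wild-type (WT) mouse spleen, CD4+ cDC2 and CD8+ cDC1, was compared by RNA sequencing. Each population had 3 libraries, so that the comparison rests on 6 of the 18 libraries of the series. They were taken by genotype and sort label, and no measured value entered the choice. Per the labels, the mice were C57BL/6, CD11c-bearing cells were enriched magnetically from digested spleen, and living cells with CD11c and MHC class II were sorted, as CD4+ cells for cDC2 and as CD8+ cells for cDC1. Poly(A) RNA was sequenced as single-end reads. The other 12 libraries hold WT CD4-CD8- cDC2 and the same 3 populations of ADAM10-deficient (KO) mice of the same strain. Of these, the 3 KO CD4+ and 3 KO CD8+ libraries serve below to see how the difference between the populations looks in other libraries. ADAM10 is a membrane protease that sheds surface proteins and cuts Notch receptors. The labels give no age, do not describe how ADAM10 was removed, and do not say whether the libraries of a group came from separate or pooled animals, so what the p-values weigh is how far these libraries vary, and that variation may be technical. In RNA from sorted bulk cells, fewer cells that express a gene and less of its RNA per cell cannot be told apart.

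The 2 populations are the main branches of the cDC lineage. The cDC1 branch depends on the transcription factors IRF8, BATF3 and ID2, is known for engulfing dead cells and presenting their antigens on MHC class I (cross-presentation), and is a source of IL-12. The cDC2 branch uses IRF4 and, for the CD4+ cells of the splenic marginal zone, Notch2 signalling through RBPJ, and is known for presenting antigen on MHC class II to CD4 T cells.

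Total estimated counts ran from 14332438 to 19557469 in the CD4+ libraries and from 12858622 to 14124471 in the CD8+ libraries, with 16519 to 17264 genes at 1 count or more in the 6. Mitochondrially encoded genes took 1.58% to 2.10% of the counts and ribosomal protein genes 9.55% ± 0.168 in CD4+ and 9.57% ± 0.0981 in CD8+ libraries (SD, n = 3). The first principal component of the 6 libraries held 73.8% of the variance and separated the populations; on the second (8%), the library numbered 3 in the labels lay apart from numbers 1 and 2 in both populations. Of 13355 genes tested in edgeR's quasi-likelihood model, 6103 (45.7%) differed at an adjusted p under 0.05. In CD4+ cells 3030 genes (22.7%) were higher and 3073 (23%) lower, and the median log2 difference over all genes was 0.0004. A change of at least 2-fold was called for 1253 higher (9.38%) and 1097 lower genes (8.21%), and the 3 libraries of one population lay wholly above the 3 of the other for 7565 genes (56.6%). With this background, a list in which about 45.7% of the members passed does not stand out from the genes at large. In what follows, "higher" and "lower" mean in CD4+ relative to CD8+ cells at an adjusted p under 0.05. Levels are CPM, counts scaled by the TMM-adjusted total of the library, in libraries 1, 2 and 3. The value after ± of a log2 difference or an interaction is its size divided by the square root of the quasi-likelihood F statistic. It stands in for a standard error and was not fitted as one.

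**Figure D1:**
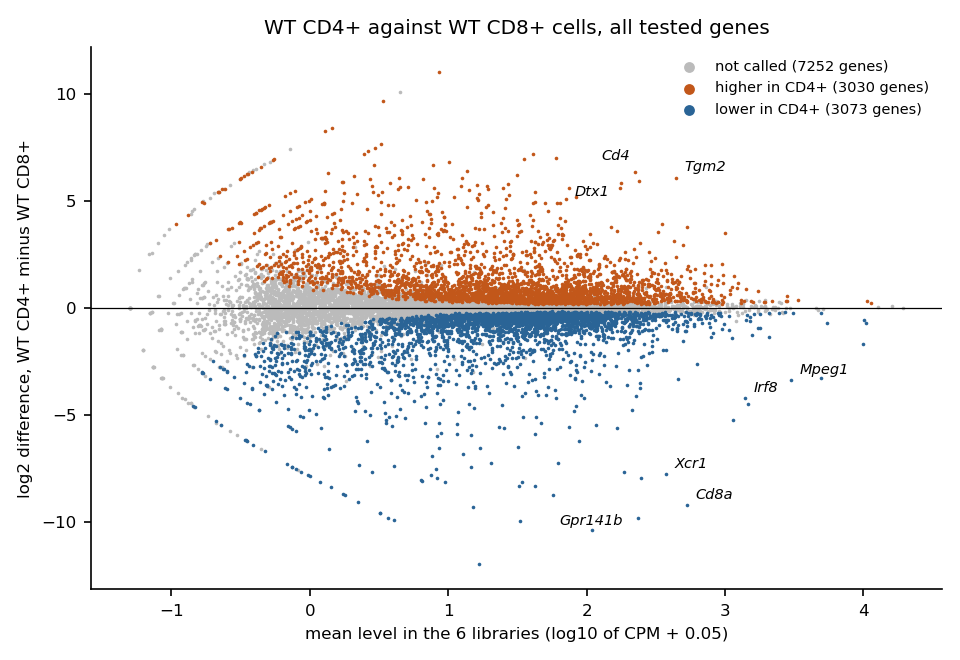
Log2 difference between WT CD4+ and WT CD8+ cells (vertical axis, CD4+ minus CD8+) against the mean level of the gene in the 6 libraries (horizontal axis, log10 of mean CPM + 0.05), 1 point per tested gene, with the 6103 genes that passed the test in colour. Cd4 and Tgm2 at the top and Cd8a, Xcr1 and Gpr141b at the bottom lie far outside the bulk of the genes, and called genes spread about evenly to both sides. Genes with no count in a population form the outer arcs at the left, where the fitted value depends on the count that edgeR adds.

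The genes that defined the sort followed it. Cd4 (chromosome 6, 124864692 to 124888221 of GRCm38) measured 450.1, 476 and 403 CPM in the CD4+ libraries and 4.34, 5.94 and 6.2 CPM in the CD8+ libraries (log2 difference 6.34 ± 0.23, adjusted p = 2.19e-12). Cd8a (chromosome 6, 71373427 to 71379173) measured 1.99, 1.67 and 1.67 CPM in CD4+ and 1036, 1139 and 1006 CPM in CD8+ cells (log2 difference -9.21 ± 0.20, adjusted p = 1.74e-14). Both are genes of the sort, so these values check the labels and are no finding. Cd8b1, the partner chain of Cd8a on T cells, stood at only 26.7, 17.7 and 29.3 CPM in CD8+ and 9.31, 9.99 and 11.9 CPM in CD4+ libraries (log2 difference -1.24 ± 0.25, adjusted p = 0.000571). Of the markers common to both gates, Itgax (CD11c) was higher at 1549.5, 1564 and 1678 against 801, 808 and 941 CPM (log2 difference 0.91 ± 0.10, adjusted p = 1.35e-06). H2-Ab1, a class II chain, did not differ beyond the spread of its libraries (log2 difference 0.05 ± 0.10, adjusted p = 0.715). Of the general cDC factors, Flt3, the receptor for the growth factor that sustains cDC, was lower (399, 360.5 and 391 against 644, 675 and 735 CPM; log2 difference -0.84 ± 0.07, adjusted p = 2.83e-08). Zbtb46, a factor of the cDC lineage, was lower by a narrow margin (log2 difference -0.19 ± 0.07, adjusted p = 0.0489; adjusted p 0.0678 to 0.14 with 1 library left out). Kit, Spi1 and Ikzf1, which act early in the lineage, were higher, with log2 differences of 0.65, 0.75 and 0.66. The heat-stable antigen Cd24a, used as a cDC1 stain, went from 402, 435 and 394 CPM in CD8+ to 16.1, 11.6 and 17.5 CPM in CD4+ cells (log2 difference -4.77 ± 0.20, adjusted p = 1.4e-11).

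Genes of cDC1 identity set the CD8+ libraries apart without exception in the list used. All 25 tested cDC1 surface and hallmark genes were lower in CD4+ cells, where 23% of all genes were, 24 of them by at least 2-fold (8.21% of all genes). Their median log2 difference was -5.24, against 0.0004 over all genes. This list, like the others, was chosen with earlier results of these data known, so its counts describe it and are no independent test. Xcr1, the receptor by which cDC1 sense XCL1 from T and NK cells, measured 636, 913 and 688 CPM in the CD8+ and 3.99, 3.55 and 2.74 CPM in the CD4+ libraries (log2 difference -7.76 ± 0.32, adjusted p = 9.55e-12). Clec9a, the cDC1 receptor for actin exposed on dead cells, measured 424, 461 and 413 and 25.6, 25.6 and 23 CPM (log2 difference -4.13 ± 0.14, adjusted p = 1.48e-12). The adhesion molecule Cadm1 followed the same order (409, 486 and 445 against 43.9, 37.2 and 38.2 CPM; log2 difference -3.49 ± 0.12, adjusted p = 1.67e-12). So did the integrin chain Itgae, known as CD103 (68.9, 107 and 77.7 against 0.604, 0.0507 and 0.134 CPM; log2 difference -8.33 ± 0.89, adjusted p = 8.57e-07). The CD4+ level of Itgae rests on few counts, and without CD4+ library 1 its difference was -9.80. In none of these 4 genes did the libraries of the populations overlap.

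The smallest differences in the cDC1 list were those of Tspan33 (-0.85), Rab43 (-1.17) and Wdfy4 (-1.37), the last known as a gene that cDC1 need for cross-presentation. Wdfy4 measured 2782, 2993 and 3288 CPM in CD8+ and 1080.2, 1040.5 and 1385 CPM in CD4+ cells; with an offset for the mean transcript length its log2 difference was -0.68 in place of -1.37. At the other end stood Gcsam at 195, 250.1 and 214 against 0.0604, 0.203 and 0.2 CPM and Gpr141b at 448, 472 and 499 against 0.483, 0.457 and 0.601 CPM. Cd207, which encodes the lectin Langerin, measured 25.8, 25.8 and 34.8 against 0.181, 0.152 and 0.134 CPM. Clnk (a signalling adaptor) had 0 counts in the 3 CD4+ libraries and 7.3, 8.52 and 5.97 CPM in the CD8+ libraries, at least 124-fold higher there when 3 counts over the group are taken as the floor. Ppef2 was also at 0 counts in CD4+ cells, and at least 46.5-fold higher in CD8+ cells. Naaa, a lysosomal amidase, measured 2042, 2421 and 2170.3 against 58.4, 60.1 and 57.6 CPM, a log2 difference of -5.23 ± 0.18. Rab7b, Septin3, Fndc7, Snx22 and Xlr had differences of -7.67, -4.14, -3.86, -2.78 and -1.94 (Rab7b -6.97 with the length offset), and the remaining members are described with their pathways.

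Transcription factors of cDC1 were less uniform than the surface genes. Irf8, at chromosome 8, 120736358 to 120756694, measured 2452, 3024 and 2479 CPM in the CD8+ and 155, 129.5 and 140.4 CPM in the CD4+ libraries (log2 difference -4.23 ± 0.16, adjusted p = 5.98e-12). Id2 measured 457, 519 and 439.8 against 164, 198 and 149.7 CPM (log2 difference -1.47 ± 0.14, adjusted p = 1.95e-07). These were 2 of the 6 tested factors that passed. Batf3, which holds the cDC1 fate by sustaining Irf8, measured 78.6, 76.6 and 66.3 CPM in CD8+ and 60.3, 64.9 and 47.7 CPM in CD4+ cells, with no overlap of libraries. It did not pass the test (log2 difference -0.36 ± 0.17, adjusted p = 0.0935), but did with the 6 libraries fitted alone (adjusted p = 0.0287). Bcl6, Etv6 and Nfil3 did not pass either, with log2 differences of -0.25, -0.09 and 0.26.

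Genes of cDC2 identity were higher in CD4+ cells with few exceptions. In the cDC2 surface and hallmark list, 24 of 27 genes were higher, where 22.7% of all genes were, and 3 lower, with a median log2 difference of 2.93. The limit on how lists were chosen holds for these counts too. Sirpa, an inhibitory receptor for CD47 and the usual cDC2 stain, measured 996, 974 and 993 CPM in CD4+ and 64.9, 61.5 and 87 CPM in CD8+ libraries (log2 difference 3.79 ± 0.19, adjusted p = 1e-10). Itgam (CD11b) measured 139.6, 142 and 132 against 3.24, 3.29 and 5.82 CPM (log2 difference 5.07 ± 0.22, adjusted p = 1.94e-11). Clec4a4, the DCIR2 lectin recognised by the 33D1 antibody, measured 121, 131 and 121 against 4.27, 3.29 and 4.76 CPM (log2 difference 4.92 ± 0.18, adjusted p = 2.19e-12). Esam, the adhesion molecule that marks the Notch-dependent cDC2 of the spleen, measured 74.7, 73.6 and 79.6 against 9.5, 8.3 and 9.29 CPM (log2 difference 3.07 ± 0.24, adjusted p = 1.75e-08). None of these 4 genes had overlapping libraries. The largest difference of the list was that of Mmp9, a gelatinase, at 89.7, 55.2 and 97.7 against 0.895, 0.429 and 0.302 CPM (log2 difference 7.18 ± 0.40, adjusted p = 2.94e-10).

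Between these and the smallest differences lay the calcium-binding S100a4 (889, 883 and 851 against 112, 96.9 and 135 CPM, log2 difference 2.93 ± 0.16) and Ffar2, a receptor for short-chain fatty acids (3.04 ± 0.42). Il1r2, the decoy receptor for IL-1, differed by 3.73 ± 0.31, the lectin Mgl2 by 4.30 ± 0.45 and S100a6 by 1.98 ± 0.14. The linked membrane genes Tmem176a and Tmem176b differed by 1.78 ± 0.11 and 1.83 ± 0.13, and the inhibitory receptor Cd300a by 1.49 ± 0.15. Gpr183, Cd7 and Cx3cr1 had the smallest, with log2 differences of 1.25, 1.19 and 0.63, after Cd209a with 1.29. Cx3cr1, the fractalkine receptor, measured 84.8, 74 and 70.4 CPM in CD4+ and 52.6, 34.6 and 60.5 CPM in CD8+ cells. It lost its call without CD4+ library 1 (adjusted p = 0.0538) or CD8+ library 2 (adjusted p = 0.0665), and with a length offset (adjusted p = 0.059). The 3 genes that were lower were Ccr2, Clec12a and Gp2. Ccr2, a chemokine receptor of monocytes and of a cDC2 subset, measured 70.5, 81.3 and 70.7 against 144, 130.4 and 148 CPM (log2 difference -0.92 ± 0.11, adjusted p = 1.94e-06). The lectin Clec12a measured 71, 68.9 and 72.5 against 197, 154 and 176 CPM (log2 difference -1.31 ± 0.15, adjusted p = 1.35e-06), and Gp2 8.7, 7.71 and 4.54 against 61.8, 29.6 and 35.4 CPM (log2 difference -2.59 ± 0.36, adjusted p = 2.74e-05). In all 3 the libraries of the populations stayed apart.

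The cDC2 transcription factors followed the surface genes, with 10 of 13 higher, 1 lower and a median log2 difference of 1.44. Irf4 measured 168, 134 and 145 CPM in CD4+ and 55.9, 40.4 and 69 CPM in CD8+ libraries (log2 difference 1.44 ± 0.17, adjusted p = 2.41e-06), a smaller gap than that of Irf8 in the other direction. Zeb2 (1.61 ± 0.23), Klf4 (1.75 ± 0.25), Relb (1.59 ± 0.14), Runx3 (1.06 ± 0.17) and Cebpb (2.97 ± 0.58) were higher on the log2 scale. With an offset for mean transcript length Zeb2 kept its size (1.53) but not its call (adjusted p = 0.0821). The nuclear receptors Nr4a1 (1.50 ± 0.34), Nr4a2 (1.06 ± 0.35) and Nr4a3 (1.25 ± 0.36), which are also induced early by stimulation, were higher too. Nr4a2 and Nr4a3 lost their call without CD4+ library 1 (adjusted p = 0.0883 and 0.0524), and Nr4a2 without CD8+ library 2 (adjusted p = 0.0708) and with the length offset (adjusted p = 0.224). Tbx21, the gene of T-bet, measured 53.8, 52.4 and 42.1 against 3.86, 5.58 and 2.95 CPM (log2 difference 3.58 ± 0.47, adjusted p = 8.37e-06). Rbpj, the DNA-binding partner of Notch, was the factor that was lower, at 175, 176 and 181 CPM in CD4+ and 285, 289 and 282 CPM in CD8+ cells (log2 difference -0.68 ± 0.13, adjusted p = 0.000419). Irf2 (0.18 ± 0.09, adjusted p = 0.105) did not pass.

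**Figure D2:**
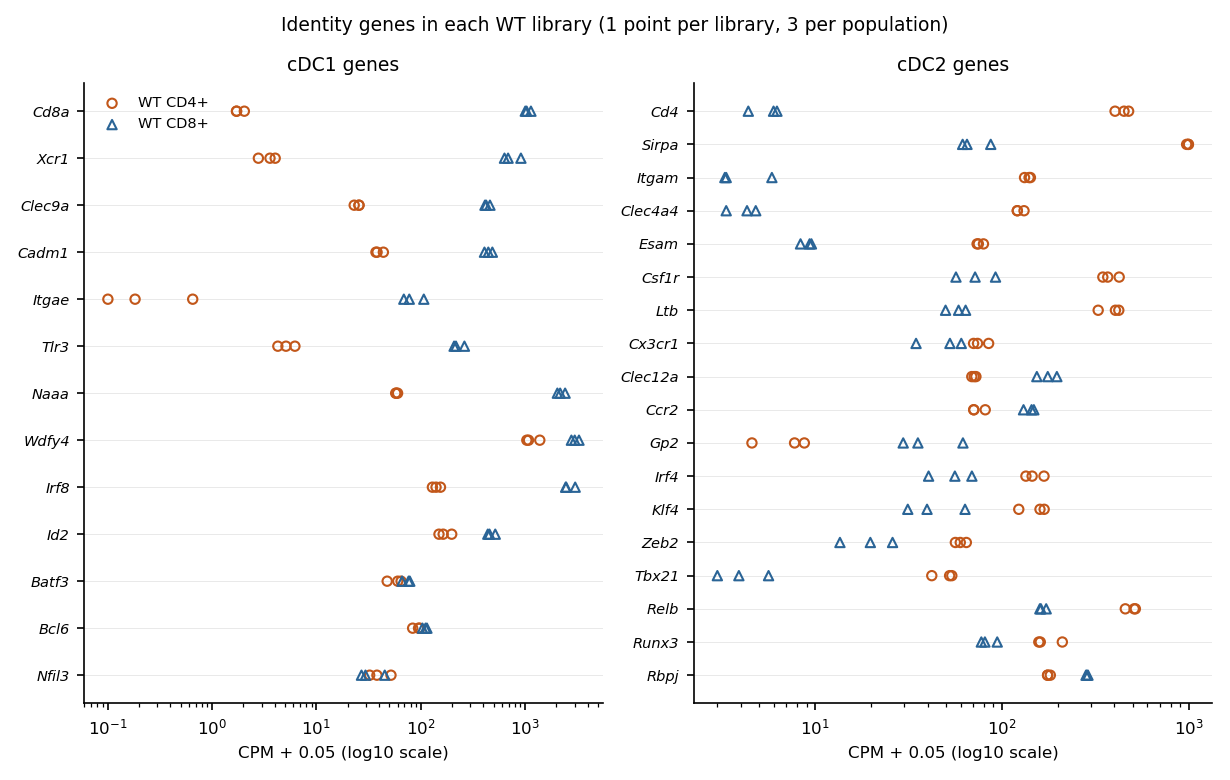
Levels of cDC1 and cDC2 identity genes in each WT library (horizontal axis, CPM + 0.05 on a log10 scale; 1 row per gene, 3 CD4+ and 3 CD8+ libraries as points). The points of the populations are separated in every row except Nfil3, and the gaps are widest for Cd8a, Xcr1 and Itgae and narrow for Batf3, Bcl6 and Cx3cr1.

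The CD8+ libraries also held RNA of T and NK cell genes, at levels that differed between the libraries. Of 13 NK cell markers, 10 were lower in CD4+ cells and 0 higher, and of 16 T cell markers 10 were lower and 2 higher. Over all genes, 23% were lower and 22.7% higher. Summed over the list, NK markers stood at 32.6 to 36.5 CPM in CD4+ and 99.1 to 186 CPM in CD8+ libraries. Summed T cell markers went the other way, 96.2 to 107 CPM in CD4+ and 41.9 to 83.9 CPM in CD8+ libraries. In the CD4+ libraries most of that sum was Tcf7 (69.9, 64 and 78.4 against 15.5, 20.8 and 18.4 CPM) and Cd5 (19.9, 22.1 and 18.2 against 6.82, 6.37 and 8.46 CPM), the 2 markers that were higher. Gzma, a granule protease, measured 16.3, 33.9 and 0.604 CPM in the CD8+ and 0.483, 0.0507 and 0 CPM in the CD4+ libraries (log2 difference -6.53 ± 1.39, with -8.85 without CD4+ library 1 and -5.53 without CD8+ library 2). Nkg7, another granule gene, measured 10.8, 11.8 and 1.28 and 0.181, 0.152 and 0.401 CPM, and Cd3e, a chain of the T cell receptor complex, 1.79, 4.72 and 0.982 and 0.544, 0.507 and 0.935 CPM. CD8+ library 3 had the lowest level of the 3 CD8+ libraries for each of these. Cd3e lost its call without CD8+ library 2 (log2 difference -1.08 in place of -1.94, adjusted p = 0.316), without any 1 CD4+ library (adjusted p 0.0586 to 0.12) and with a length offset (adjusted p = 0.0522). Klrk1 (NKG2D) varied less between the CD8+ libraries, at 87.2, 89.6 and 83 CPM (log2 difference -1.62 ± 0.15, adjusted p = 1.32e-07). Without CD8+ library 2, which had the most Gzma, the log2 differences of Irf8, Xcr1 and Clec9a were -4.11, -7.57 and -4.07. CD8+ library 1, with Gzma at 16.3 CPM, stayed in that fit. The part of T and NK cells in the results was not tested.

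Macrophage genes stood higher in the CD4+ libraries. Of 15 tested red pulp macrophage markers, 11 were higher and 1 lower, where 22.7% of all genes were higher and 23% lower. Their summed levels were 643 to 730.4 CPM in CD4+ and 91.1 to 125 CPM in CD8+ libraries. Most of the sum came from Adgre1 (F4/80), at 474, 498 and 429 against 7.44, 6.51 and 9.14 CPM (log2 difference 5.92 ± 0.20, adjusted p = 1.32e-12; 6.96 with the length offset). The complement genes C1qa (39.8, 43 and 34.7 against 1.65, 2.36 and 4 CPM) and C1qb (33.2, 36.4 and 27.6 against 1.24, 1.79 and 2.12 CPM) were higher as well. Spic, the factor of iron-recycling macrophages, measured 16.8, 11.5 and 12 against 4.06, 2.29 and 4 CPM (log2 difference 1.96 ± 0.24, adjusted p = 3.56e-06). Cd5l was higher at a low level, 3.02, 1.67 and 2.47 against 1.03, 0.358 and 0.68 CPM (log2 difference 1.77 ± 0.44, adjusted p = 0.00346). Cd163 did not pass at 1.63, 0.457 and 1.6 against 1.52, 1.07 and 1.44 CPM, and Vsig4 had 0 counts in all 6 libraries. Vcam1, which red pulp macrophages also carry, was lower (log2 difference -0.72 ± 0.18, adjusted p = 0.00337). Of the marginal zone macrophage markers, 3 of 5 tested were higher and 0 lower (60% called, against 45.7% of all genes). Their sums were 27.1 to 29.3 CPM in CD4+ and 3.15 to 3.78 CPM in CD8+ libraries. The part of macrophages in the results was not tested. The monocyte list, which shares Ccr2, Cebpb and Nr4a1 with the cDC2 lists, gave 7 higher and 5 lower of 16 (75% called), with Vcan at 0. Of the other lists, pDC markers moved both ways (5 higher and 6 lower of 15, 73.3% called). So did B cell markers (6 and 2 of 15, 53.3% called against 45.7% of all genes). Of the neutrophil markers only 3 had enough counts to test, 2 of them higher and 0 lower (66.7% called). Their list summed to 18.2 to 18.4 CPM in CD4+ and 1.15 to 2.41 CPM in CD8+ libraries, with Camp and Retnlg at 0, and its part in the results was not tested.

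Ranked by size, the genes furthest lower in CD4+ cells include secreted and membrane proteins of several families. Dkk3, a secreted relative of the Dickkopf Wnt antagonists (chromosome 7, 112116017 to 112159057), had 0 counts in the CD4+ libraries and 36, 18.2 and 45.3 CPM in the CD8+ libraries, at least 567-fold higher there. Trabd2b and Alpl (alkaline phosphatase) were also at 0 in CD4+ cells, and at least 109-fold and 108-fold higher in CD8+ cells. Plpp1, a lipid phosphate phosphatase, had 3 counts over the CD4+ libraries and 61.9, 72 and 65.1 CPM in the CD8+ libraries, a ratio of 1130 with a counting interval of 387 to 5490 (95%, exact). Gramd2 and Gpr33 had 2 counts each over the CD4+ libraries, against 29.6, 28.7 and 31.4 CPM and 10.7, 17.2 and 10.4 CPM in the CD8+ libraries (ratios of 765, 211 to 6320, and 328, 90.5 to 2720). The Wnt receptor Fzd1 measured 105, 113 and 123 against 0.363, 0.254 and 0.134 CPM (log2 difference -8.77 ± 0.33, adjusted p = 4.78e-12). The collagen hydroxylase P3h2 measured 61.6, 60.3 and 73.4 against 0.0604, 0.203 and 0.334 CPM, and Mab21l3 67.1, 67.1 and 68.2 against 0.302, 0.254 and 0.134 CPM. Cd8a, Gcsam, Gpr141b, Itgae and Clnk, given above, are among the same 15. The processed pseudogene Hdac1-ps, at 0 in CD4+ and 5.23, 4.58 and 14.1 CPM in CD8+ cells, shares sequence with its parent gene, so that its value depends on how reads were divided.

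In the other direction stood receptors of myeloid cells and transporters. Tarm1, an activating receptor encoded in the leukocyte receptor complex, chromosome 7, 3486500 to 3502624, measured 14.9, 18 and 18.6 CPM in CD4+ cells and 0 in CD8+ cells, at least 238-fold higher. The atypical cadherin Fat2 had 4.83, 5.73 and 9.48 CPM and 0, at least 92.9-fold higher. Trem1 and Trem3, neighbours on chromosome 17, each had 1 count over the 3 CD8+ libraries and 6.41, 4.97 and 3.94 CPM and 6.53, 7.41 and 5.34 CPM in the CD4+ libraries (ratios of 214, 38.1 to 8490, and 272, 48.5 to 10800). Tgm2, a transglutaminase, was the most abundant of the 15, at 880.3, 947 and 799.8 against 11.6, 12.3 and 14.7 CPM (log2 difference 6.09 ± 0.29, adjusted p = 5.35e-11). The sodium-calcium exchanger Slc8a2 measured 70.7, 80.2 and 59.5 against 0.689, 0.429 and 0.529 CPM (log2 difference 6.97 ± 0.59, adjusted p = 1.72e-07). The ryanodine receptor Ryr3 measured 25.6, 15.1 and 19 against 0.138, 0 and 0.378 CPM (log2 difference 6.82 ± 0.43, adjusted p = 7.33e-09), with a difference of 7.99 without CD8+ library 3 and 8.26 with the length offset. Neither of these genes had overlapping libraries. Pram1, an adaptor of myeloid cells, measured 22.9, 34.8 and 23.6 against 0.344, 0.286 and 0.302 CPM, and Slc44a5, a choline transporter-like protein, 16.6, 15.4 and 14.1 against 0.344, 0 and 0.0756 CPM. Bpifb4 and Scel had 1 and 2 counts over the CD8+ libraries (ratios of 239, 42.6 to 9490, and 119, 32.7 to 990). Cd4, Mmp9, Sirpb1c and Il1rn complete the 15.

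Notch genes showed a divided picture, with some targets higher and some receptors lower by counts in CD4+ cells. Of the receptors, Notch1 and Notch4 did not pass with an offset for transcript length. Of 7 tested Notch targets, 4 were higher and 0 lower, where 22.7% of all genes were higher and 23% lower. All 4 were higher by at least 2-fold (9.38% of all genes). The share called in either direction, 57.1%, was near the 45.7% of all genes. Dtx1 (Deltex, a ubiquitin ligase induced by Notch) measured 328, 356 and 344 CPM in CD4+ and 5.37, 7.73 and 7.86 CPM in CD8+ libraries (log2 difference 5.62 ± 0.56, adjusted p = 3.84e-07). Hes1, a repressor induced by Notch, measured 47.9, 32.2 and 40.7 against 19.1, 14.9 and 20.9 CPM (log2 difference 1.14 ± 0.33, adjusted p = 0.00951). Nrarp, a feedback inhibitor, measured 1.99, 1.52 and 1.87 against 0.275, 0.859 and 0.302 CPM (log2 difference 1.89 ± 0.65, adjusted p = 0.0247). Nrarp, the least abundant, kept its call only without CD4+ library 2 or CD8+ library 2 (adjusted p 0.0133 to 0.0955 with 1 library left out), and its difference was 2.61 without CD8+ library 2. Gpr183, described with the receptors that place cells, is the remaining one. Il2ra and Cd300e did not pass (-0.48 and -0.37), and Hes5, Hey1 and Hey2 had too few counts to test.

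Among receptors, ligands and cofactors, 7 were higher, 10 lower and 6 not called of 23. Notch2, the receptor on which CD4+ cDC2 depend, measured 226, 207 and 233 CPM in CD4+ and 231, 241 and 263 CPM in CD8+ cells, with overlapping libraries (log2 difference -0.14 ± 0.11, adjusted p = 0.315). Notch4 counts were lower, 5.68, 5.99 and 4.74 against 74, 89.1 and 79.8 CPM (log2 difference -3.88 ± 0.23, adjusted p = 5.49e-10). Notch1 counts were lower too, 3.81, 3.4 and 4.14 against 13.8, 11.8 and 14.9 CPM (log2 difference -1.84 ± 0.17, adjusted p = 1.06e-07). Both depend on transcript length: with a length offset the differences were -1.67 (adjusted p = 0.0987) for Notch4 and -0.32 (adjusted p = 0.846) for Notch1, so that neither passed. Notch3 was lower as well, 0.967, 0.862 and 1.07 against 9.3, 5.44 and 11.2 CPM (log2 difference -3.15 ± 0.48, adjusted p = 4.16e-05). The ligand Jag2 measured 22.7, 25.7 and 18.8 CPM in CD8+ and 0.786, 0.558 and 0.134 CPM in CD4+ cells (log2 difference -5.45 ± 0.46, adjusted p = 4.84e-08). The ligand Jag1 (1.20), the coactivator Maml3 (1.35) and Lfng (0.76), which adds sugars that tune ligand choice, were higher. Adam10 itself measured 82.9, 80.6 and 129.6 CPM in CD4+ and 57, 58.3 and 99 CPM in CD8+ libraries; library 3 was highest in both, and the difference did not pass (log2 difference 0.45 ± 0.22, adjusted p = 0.104).

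Pattern recognition receptors divided the populations. Of 12 tested Toll-like receptors, 7 were higher and 3 lower in CD4+ cells. Those lower were Tlr3, the endosomal receptor for double-stranded RNA (4.23, 6.19 and 5.07 against 218, 263 and 209 CPM; log2 difference -5.47 ± 0.22, adjusted p = 7.65e-12), and Tlr11 and Tlr12, which bind profilin of apicomplexan parasites. Tlr11 measured 28.6, 30.7 and 30.2 against 321, 434 and 328 CPM and Tlr12 10.2, 9.69 and 10.7 against 172, 192 and 155 CPM, with log2 differences of -3.60 and -4.09. Tlr7, for single-stranded RNA, measured 120.2, 113 and 118 CPM in CD4+ and 7.09, 8.23 and 8.69 CPM in CD8+ libraries (log2 difference 3.87 ± 0.19, adjusted p = 6.75e-11); with the length offset its difference was 4.95. Tlr8 (5.02), Tlr1 (3.44; 2.85 with the offset), Tlr5 (1.92), Tlr6 (1.58; 2.35 with the offset), Tlr2 (1.21) and Tlr13 (0.35) were higher on the log2 scale, Tlr8 by 5.61 without CD8+ library 1. Tlr13 did not keep its call in all fits (adjusted p 0.033 to 0.178 with 1 library left out and 0.0878 with the length offset). Tlr9, for unmethylated CpG DNA, and Tlr4, for lipopolysaccharide, overlapped between populations: Tlr9 measured 109, 111 and 126 CPM in CD4+ and 89.2, 111 and 112 CPM in CD8+ libraries (log2 difference 0.14 ± 0.13, adjusted p = 0.393).

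Adaptors and chaperones of these receptors moved in both directions. Of 18, 4 were higher and 4 lower, a share near the 45.7% of all genes. Myd88, shared by most receptors, had a log2 difference of 0.27 ± 0.14 (adjusted p = 0.113), and the chaperone Unc93b1, which carries nucleic acid receptors to endosomes, one of 0.09 ± 0.07 (adjusted p = 0.286). Ticam2, the bridging adaptor of TLR4, was higher (78.5, 71.6 and 80.7 against 13.9, 9.66 and 17.7 CPM; log2 difference 2.49 ± 0.17, adjusted p = 2.65e-09). Ticam1, the adaptor of TLR3, was lower (23.4, 22.4 and 21.6 against 31.5, 35.5 and 36 CPM; log2 difference -0.61 ± 0.09, adjusted p = 4.24e-05). The inhibitory kinase Irak3 (1.72) and Ly86 (MD-1; 0.64) were higher. Hsp90b1 (gp96), the chaperone that folds the receptors, was lower (243, 289.8 and 235 against 763, 847 and 614 CPM; log2 difference -1.54 ± 0.12, adjusted p = 2.19e-08), as was Irf5 (-0.38; adjusted p = 0.174 with the length offset).

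Sensors of the cytosol were higher in CD4+ cells for 17 of 24 genes and lower for 2, with a median log2 difference of 0.87. Ddx58 (RIG-I), which senses viral RNA ends, measured 61, 64.8 and 56.5 CPM in CD4+ and 4.61, 3.94 and 3.32 CPM in CD8+ libraries (log2 difference 3.93 ± 0.16, adjusted p = 7.94e-12; 1.95 with the length offset). Its relative Ifih1 (MDA5) measured 74.8, 76.7 and 68.1 against 25.8, 20.5 and 26.4 CPM (log2 difference 1.60 ± 0.14, adjusted p = 7.33e-08), and their common adaptor Mavs did not pass (adjusted p = 0.946). Inflammasome genes were higher: Nlrp3 at 161, 120.4 and 117 against 41.3, 33 and 38.1 CPM (log2 difference 1.83 ± 0.15, adjusted p = 3.54e-08), Nlrc4 (1.99), Mefv (2.07), Naip2 (1.15) and Casp1 (1.29), whereas the adaptor Pycard did not pass (0.11). The peptidoglycan sensors Nod1 (1.85) and Nod2 (1.00) and their kinase Ripk2 (2.23) were higher. So was Sting1 (125, 122 and 133 against 71.2, 63.8 and 75.6 CPM; log2 difference 0.85 ± 0.09, adjusted p = 5.17e-07). Lower were Naip6 (-0.41; adjusted p 0.00915 to 0.111 with 1 library left out) and Nlrc5, an activator of MHC class I genes (37.8, 39.3 and 35.5 against 66.2, 77 and 70.9 CPM; log2 difference -0.93 ± 0.25, adjusted p = 0.00569).

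**Figure D3:**
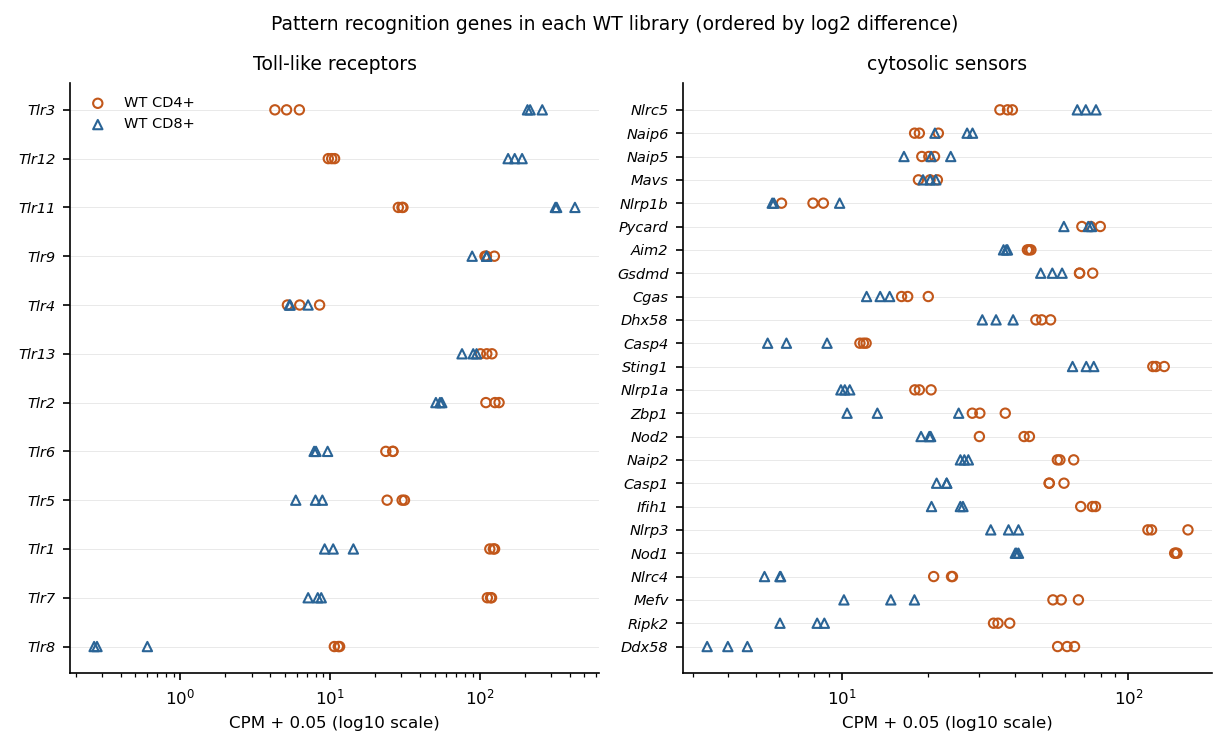
Toll-like receptors and cytosolic sensors in each WT library (horizontal axis, CPM + 0.05 on a log10 scale; 1 row per gene, ordered by the log2 difference within each class). Tlr3, Tlr11 and Tlr12 are the Toll-like receptors with CD8+ points to the right, and most cytosolic sensors have CD4+ points to the right.

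Interferon-stimulated genes moved unevenly. Of 35 tested, 19 were higher and 5 lower, with a median log2 difference of 1.14. Ifit3 measured 30.8, 43.4 and 33.8 CPM in CD4+ and 1.24, 1 and 1.81 CPM in CD8+ libraries (log2 difference 4.74 ± 0.32, adjusted p = 3.41e-09). Its relative Ifit1 measured 16.4, 19.8 and 12.5 and 1.38, 1.36 and 1.06 CPM (log2 difference 3.67 ± 0.20, adjusted p = 3.12e-10). Oas1a, which makes the activator of RNase L, measured 66.7, 96.8 and 69.6 and 4.27, 5.51 and 3.7 CPM (log2 difference 4.11 ± 0.30, adjusted p = 8.21e-09). Rtp4 was the furthest higher, at 36.6, 42.6 and 33.6 against 0.689, 1 and 0.453 CPM (log2 difference 5.70 ± 0.31, adjusted p = 2.66e-10). None of these genes had overlapping libraries. Stat2 (0.33 ± 0.18) and Irf7 (-0.23 ± 0.15), factors of the response, did not pass, with adjusted p-values of 0.137 and 0.236. Oas2 was higher as well (5.02, 5.23 and 4.47 against 0.138, 0.358 and 0.0756 CPM, log2 difference 4.62 ± 0.50, or 5.42 without CD8+ library 2). In the opposite direction, Ifi205 of the DNA-sensing Ifi200 family measured 1.57, 2.54 and 1.67 CPM in CD4+ and 466, 571 and 428 CPM in CD8+ libraries (log2 difference -7.96 ± 0.26, adjusted p = 9.33e-13). Trim30a, of the TRIM family, measured 112, 122 and 109.9 and 216, 222 and 188 CPM (log2 difference -0.86 ± 0.10, adjusted p = 1.67e-06). Mx1, Bst2 and Ifi35 were lower too, with log2 differences of -1.07, -0.74 and -0.47.

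Promoters of genes of both directions are shown for the letters they share. The core of the interferon response element, searched as GAAA, any 2 bases and GAAA on both strands, was found in the 250 bases before the start in 17 of 28 interferon-stimulated genes with a promoter in the RefSeq table (60.7%). It was in 3% of 9756 tested genes and 3.04% of all 27025 promoters. It was found in 9 of 15 of the higher (60%) and 3 of 4 of the lower members (75%). Among all genes, 5.93% of those at least 2-fold higher and 2.82% of those at least 2-fold lower held it. Below are 3 promoters of higher genes (Ifit1, Ifit3, Oas1a) and 2 of lower genes (Ifi205, Trim30a), from RefSeq on GRCm38.p6, on the strand of the gene and ending at the base before the start. Capitals mark the matches, those beginning with TTTC being the core read on the other strand. The motif was added after the values of these genes had been seen.
Ifit1 (chr19:34640639-34640888, plus strand): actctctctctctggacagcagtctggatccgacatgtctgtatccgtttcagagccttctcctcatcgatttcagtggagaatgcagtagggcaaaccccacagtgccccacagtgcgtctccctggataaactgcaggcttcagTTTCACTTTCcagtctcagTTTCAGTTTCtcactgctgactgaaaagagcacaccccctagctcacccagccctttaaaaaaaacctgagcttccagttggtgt
Ifit3 (chr19:34583279-34583528, plus strand): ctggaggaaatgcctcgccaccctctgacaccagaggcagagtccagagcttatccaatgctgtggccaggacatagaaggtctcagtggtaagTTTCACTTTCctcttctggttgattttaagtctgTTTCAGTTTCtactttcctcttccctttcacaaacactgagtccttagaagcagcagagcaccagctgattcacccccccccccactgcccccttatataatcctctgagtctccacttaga
Oas1a (chr5:120907526-120907775, minus strand): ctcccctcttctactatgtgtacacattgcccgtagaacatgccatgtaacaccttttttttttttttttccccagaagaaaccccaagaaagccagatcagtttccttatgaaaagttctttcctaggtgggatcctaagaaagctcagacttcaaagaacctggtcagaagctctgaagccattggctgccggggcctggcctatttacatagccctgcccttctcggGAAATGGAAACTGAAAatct
Ifi205 (chr1:174031756-174032005, minus strand): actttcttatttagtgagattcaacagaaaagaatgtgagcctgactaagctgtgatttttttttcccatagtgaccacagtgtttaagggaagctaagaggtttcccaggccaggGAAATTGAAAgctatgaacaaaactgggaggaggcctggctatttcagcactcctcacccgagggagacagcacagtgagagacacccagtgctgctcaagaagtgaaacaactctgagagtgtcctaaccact
Trim30a (chr7:104465194-104465443, minus strand): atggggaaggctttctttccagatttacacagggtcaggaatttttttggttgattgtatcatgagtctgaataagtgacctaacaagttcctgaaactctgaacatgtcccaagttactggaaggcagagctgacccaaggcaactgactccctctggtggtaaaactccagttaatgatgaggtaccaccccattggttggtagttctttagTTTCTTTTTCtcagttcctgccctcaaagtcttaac
Ifit1 and Ifit3 each hold 2 matches, Oas1a 2 that overlap, and Ifi205 and Trim30a 1 each, so that promoters of both directions carry the letters. A match describes the sequence and shows no binding.

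Motifs linked to the factors of the 2 branches were spread over the promoters at large. TGGGAA, the core bound by RBPJ, was in 20% of tested genes, 19.8% of those at least 2-fold higher and 22.6% of those at least 2-fold lower. The composite of ETS and IRF factors (GGAA, any 2 bases and GAAA) was in 2.11%, 1.9% and 2.21%, and the AP-1 site TGANTCA in 4.33%, 6.24% and 4.42%. In the cDC2 hallmark genes with a promoter in the table, TGGGAA was in 7 of 21 (33.3%), among them Gpr183 and Cx3cr1. It was in 6 of 18 of the higher and in 1 of 3 of the lower members (Gp2). In the cDC1 hallmark genes it was in 3 of 19 (15.8%), and in the Notch targets in 1 of 5 (20%).

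C-type lectin receptors were all called, 22 of 29 tested genes higher and 7 lower. Clec10a, a lectin for galactose-type sugars, was called by a narrow margin with overlapping libraries, 21.6, 22.1 and 12.9 against 14.2, 9.09 and 12.5 CPM (log2 difference 0.66 ± 0.24, adjusted p = 0.0298). It lost its call without CD4+ library 1 or 2 (adjusted p = 0.107 and 0.12) and without CD8+ library 2 or 3 (adjusted p = 0.129 and 0.0547). The Clec4a genes were higher together: Clec4a1 (137, 153 and 149.5 against 3.31, 3.01 and 2.72 CPM; log2 difference 5.60 ± 0.18, adjusted p = 1.07e-12), Clec4a3 (5.11), Clec4a2 (3.85) and Clec4a4. Clec7a (Dectin-1), which binds fungal beta-glucan, measured 666, 411 and 482 CPM in CD4+ and 129, 76.1 and 108 CPM in CD8+ libraries (log2 difference 2.32 ± 0.24, adjusted p = 4.76e-07). Clec4n (Dectin-2) measured 22.2, 23.1 and 18.7 and 0.275, 0.286 and 1.21 CPM (log2 difference 5.19 ± 0.52, adjusted p = 4.24e-07; 6.21 without CD8+ library 3). Clec4b2, a relative encoded in the same cluster, went the other way, with 3 counts over the CD4+ libraries and 16.9, 7.8 and 20.1 CPM in CD8+ cells, a ratio of 254 with a counting interval of 86.6 to 1240. Ly75 (DEC-205), an endocytic receptor of cDC1, measured 184, 195 and 193 against 23.8, 23.7 and 26 CPM (log2 difference -2.96 ± 0.18, adjusted p = 6.31e-10). Cd209d measured 83.2, 45.2 and 78.1 against 9.67, 7.15 and 7.08 CPM (log2 difference -3.11 ± 0.30, adjusted p = 2.41e-07), opposite to Cd209a. The Clec4a genes, Mgl2 with Clec10a, and the Cd209 genes are relatives of each other, and their values may carry the uncertainty of divided reads. How far they do was not measured.

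Paired receptors that signal through tyrosine motifs were higher in 22 of 25 genes of the list of SIRP, Siglec, CD300, PILR and LILR-type genes and their partners, lower in 2, with a median of 2.54. Besides Sirpa, the activating Sirpb1a measured 336, 353 and 355 CPM in CD4+ and 4.34, 5.73 and 8.46 CPM in CD8+ cells (log2 difference 5.82 ± 0.23, adjusted p = 8.02e-12). Sirpb1b and Sirpb1c, which share much of its sequence, had log2 differences of 4.92 and 6.98. Inhibitory lectins for sialic acid were higher. Siglece measured 48.6, 47.2 and 50.1 against 0.826, 0.644 and 1.51 CPM (log2 difference 5.61 ± 0.27, adjusted p = 6.4e-11) and Cd22 91.2, 111 and 90.7 against 11.6, 10.6 and 15.6 CPM (log2 difference 2.96 ± 0.21, adjusted p = 7.48e-09). The adaptor Tyrobp (DAP12) measured 630.4, 674 and 618 against 242, 262 and 272 CPM (log2 difference 1.31 ± 0.09, adjusted p = 2.67e-09) and the phosphatase Ptpn6 (SHP-1) was higher as well (1.21), while its relative Ptpn11 (SHP-2) was lower (-0.50). The other lower gene was Cd33, at 16.2, 11 and 12.8 against 35.7, 15.4 and 33.9 CPM (log2 difference -1.09 ± 0.34, adjusted p = 0.0138; adjusted p 0.00236 to 0.0686 with 1 library left out). Cd47, the ligand of SIRPA, differed by 0.22 on the log2 scale (adjusted p = 0.0103; 0.306 with the length offset). Of the Fc receptors, the shared chain Fcer1g was higher (299.8, 360.4 and 317 against 70.9, 58.2 and 80 CPM; log2 difference 2.22 ± 0.11, adjusted p = 8.36e-11). Fcgr3 (3.89, or 4.81 without CD8+ library 3), Fcgr4 (2.32), Fcgr1 (2.37) and Fcrl5 (2.87) were higher with it, the last 2 at under 2 CPM. Fcgr1 did not pass with the length offset (adjusted p = 0.13), and Fcrl5 differed by 3.67 without CD8+ library 2. The inhibitory Fcgr2b (-0.61) and the transport receptor Fcgrt (-0.88; adjusted p = 0.102 with the length offset) were lower.

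Receptors for dead cells did not move as a block, with 8 higher, 4 lower and 7 not called of 19. The share called was 63.2%, against 45.7% of all genes. Clec9a and Cd36 (322, 312 and 343 against 6.83, 6.19 and 6.74 CPM; log2 difference -5.63 ± 0.31, adjusted p = 3.12e-10) were lower in CD4+ cells. So was Havcr2 (TIM-3), at 275, 285 and 313 CPM in CD8+ and 184, 175 and 187 CPM in CD4+ libraries (log2 difference -0.68 ± 0.12, adjusted p = 0.000261). Axl, a receptor for bridged phosphatidylserine, was higher (40.3, 42.5 and 34.3 against 5.51, 4.58 and 6.2 CPM; log2 difference 2.85 ± 0.32, adjusted p = 1.26e-06). Higher too were Lrp1 (1.71; 1.06 with the length offset), Msr1 (5.84, or 7.39 without CD8+ library 2) and Cd300lf (3.12), genes that macrophages also express.

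The MHC class I pathway was lower in CD4+ cells for 13 of 21 tested genes and higher for 1 (median log2 difference -0.67). The peptide transporter subunit Tap1 measured 309, 361 and 322 against 687, 764 and 638 CPM (log2 difference -1.07 ± 0.19, adjusted p = 0.000165), and its partner Tap2 194, 206 and 179.6 against 425, 408 and 360.0 CPM (log2 difference -1.04 ± 0.15, adjusted p = 2.04e-05). The loading complex followed, with Tapbpl (-1.15), Calr (-1.03) and Pdia3 (-1.36), and so did Cd1d1 (-1.56), which presents lipids, the immunoproteasome subunits Psmb8 (-0.72) and Psmb9 (-0.98) and the proteasome activator Psme1 (-0.82). The heavy chains did not: H2-K1 (0.29 ± 0.15, adjusted p = 0.13) and H2-D1 (-0.02 ± 0.10, adjusted p = 0.869) overlapped. B2m, the light chain, was the gene that was higher (3179.7, 3682 and 3221 against 2068, 2425 and 2300.0 CPM; log2 difference 0.57 ± 0.10, adjusted p = 0.000211). Class I heavy chains are close relatives, and their counts are uncertain for that reason.

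In the list for cross-presentation, 9 genes were lower and 5 higher of 20. The pore-forming Mpeg1 (perforin-2) measured 529, 538 and 509 CPM in CD4+ and 5529.9, 5706 and 5254 CPM in CD8+ libraries (log2 difference -3.39 ± 0.08, adjusted p = 1.74e-14). Apol7c, of the apolipoprotein L family, measured 158, 211 and 166 and 1032, 1175 and 1049.8 CPM (log2 difference -2.60 ± 0.21, adjusted p = 3.23e-08). Rab43, Vamp3 (-1.07), Rab11a (-1.06) and Sec61a1 (-0.85) were lower. Tfeb, a lysosomal regulator that favours class II presentation, was higher (153, 164 and 147 against 47.2, 44.4 and 47.4 CPM; log2 difference 1.74 ± 0.12, adjusted p = 3.96e-09), with Rac2 (1.12) and Lnpep (0.64; adjusted p = 0.0539 with the length offset). Of 8 oxidase genes, which keep the phagosome alkaline, 7 were higher and 0 lower. The proton channel Hvcn1 led them (131, 131 and 127 against 25.6, 21 and 28.6 CPM; log2 difference 2.37 ± 0.12, adjusted p = 1.47e-10). The catalytic chain Cybb measured 616, 573 and 601 against 232, 165 and 299 CPM (log2 difference 1.36 ± 0.21, adjusted p = 5.55e-05).

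MHC class II genes were higher for 10 of 18 and lower for 3. The abundant chains were close: H2-Aa was higher by 0.31 on the log2 scale, and Cd74, the invariant chain, measured 19687, 19706 and 18536 CPM in CD4+ and 19857, 19143 and 19651 CPM in CD8+ libraries (-0.02 ± 0.07, adjusted p = 0.852). Larger gaps lay in the accessory chains. H2-Eb2 measured 636, 619 and 571 against 53.5, 47.2 and 55.8 CPM (log2 difference 3.54 ± 0.16, adjusted p = 2.57e-11). The beta chains of H2-DM split. H2-DMb2 was higher (1003, 960.2 and 899 against 283, 245 and 275 CPM; log2 difference 1.83 ± 0.12, adjusted p = 1.41e-09) and H2-DMb1 lower (309, 318 and 291 against 567, 635 and 560.2 CPM; log2 difference -0.94 ± 0.09, adjusted p = 2e-07). H2-Oa (0.89), an inhibitor of H2-DM, was higher, and the transactivator Ciita overlapped (-0.11 ± 0.12). The ubiquitin ligase Marchf1, which removes class II from the surface, was lower (149, 153 and 161 against 188, 206 and 215 CPM; log2 difference -0.40 ± 0.12, adjusted p = 0.0104), as was the clathrin adaptor subunit Ap1b1 (-0.84).

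Lysosomal proteases were higher for 10 of 16 and lower for 3. Ctss, which trims the invariant chain, measured 1508, 1535 and 1406 against 809, 717 and 775 CPM (log2 difference 0.95 ± 0.07, adjusted p = 1.12e-08), and Ctsc (1.80), Ctsa (1.63), Ctsd (1.39) and Ctsh (0.85) were higher with it. Cst3, cystatin C, an inhibitor of these proteases, measured 885, 1038 and 869.5 CPM in CD4+ and 8291, 10221 and 8509.6 CPM in CD8+ libraries (log2 difference -3.27 ± 0.16, adjusted p = 9.63e-11). Per transcript length it was among the abundant RNAs of CD8+ cells, at 12503 ± 709.8 TPM (counts scaled by transcript length and library total) against 1322 ± 88.6 in CD4+ cells (SD, n = 3). Ctsw (-2.64, -2.03 with the length offset; adjusted p = 0.0705 without CD8+ library 2) and the inhibitor Cstb (-0.42; adjusted p 0.00826 to 0.058 with 1 library left out) were the other lower genes.

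**Figure D4:**
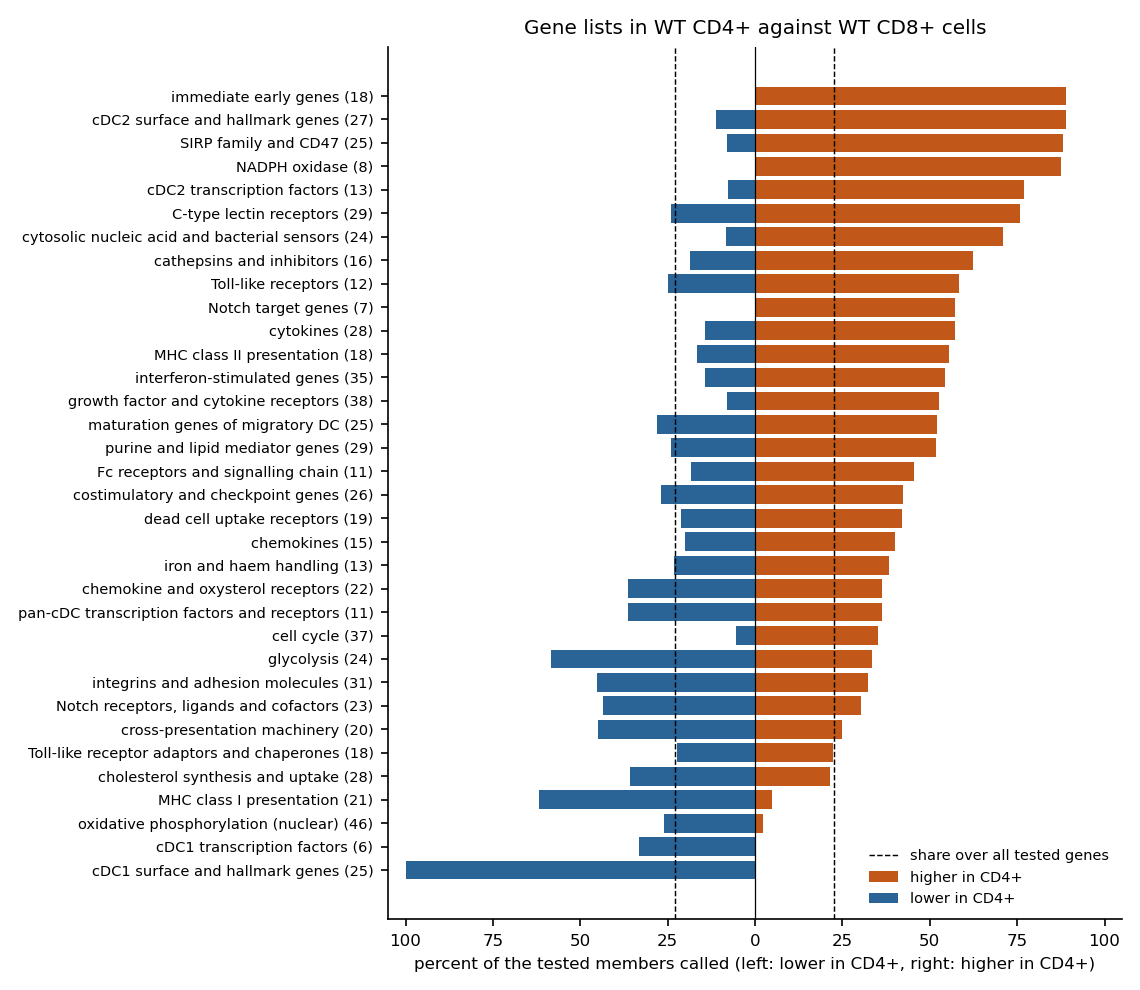
Share of the tested members of each gene list that were higher (right) or lower (left) in WT CD4+ than in WT CD8+ cells (horizontal axis, percent of tested members; number tested beside each name; dashed lines at 22.7% and 23%, the shares over all 13355 genes). The cDC1 list lies wholly to the left, lectins, SIRP and paired receptors, immediate early and NADPH oxidase genes mostly to the right, and oxidative phosphorylation is mostly uncalled.

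Signals to T cells differed by gene. The ligands of PD-1 were higher in CD4+ cells. Cd274 (PD-L1) measured 225, 217 and 242 against 45.2, 41.2 and 41.8 CPM (log2 difference 2.42 ± 0.20, adjusted p = 5.07e-08) and Pdcd1lg2 (PD-L2) 24.4, 29.1 and 32.8 against 1.58, 2.93 and 1.89 CPM (log2 difference 3.75 ± 0.30, adjusted p = 2.73e-08). The inhibitory Cd101 was higher as well (log2 difference 5.75 ± 0.26, adjusted p = 3.58e-11). Of the B7 molecules, Cd86 was lower (89.2, 78.4 and 85.2 against 281, 287 and 278 CPM; log2 difference -1.74 ± 0.13, adjusted p = 9.63e-09) and Cd80 higher (61.3, 40.1 and 41.4 against 30, 24.3 and 29.5 CPM; log2 difference 0.77 ± 0.19, adjusted p = 0.00288). Cd40 overlapped (0.10 ± 0.17, adjusted p = 0.653). Cd200, a ligand that quiets myeloid cells, was lower (12.9, 11.6 and 10.2 against 34.5, 24.2 and 26.6 CPM; log2 difference -1.29 ± 0.15, adjusted p = 2.16e-06). Btla, an inhibitory receptor, measured 353, 370.0 and 348 CPM in CD8+ and 46.8, 43.3 and 51.7 CPM in CD4+ cells (log2 difference -2.92 ± 0.14, adjusted p = 5.4e-11). In the whole list 11 genes were higher and 7 lower of 26.

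Cytokine genes were higher for 16 of 28 and lower for 4. Il12b, the p40 chain of IL-12 and IL-23, measured 82.3, 72.4 and 66.4 CPM in CD8+ and 8.28, 7.41 and 5.87 CPM in CD4+ libraries (log2 difference -3.35 ± 0.27, adjusted p = 2.92e-08). Il15, which sustains NK and memory T cells, measured 15.2, 14.2 and 13.8 and 4.41, 5.43 and 3.07 CPM (log2 difference -1.73 ± 0.19, adjusted p = 1.19e-06). Il1b measured 1437, 1011 and 972 CPM in CD4+ and 393, 213 and 258 CPM in CD8+ libraries (log2 difference 1.98 ± 0.39, adjusted p = 0.000504). Its antagonist Il1rn measured 66.4, 64.4 and 54.1 and 0.964, 1 and 0.453 CPM (log2 difference 6.23 ± 0.28, adjusted p = 3.36e-11), so that both were higher. Tnf (48.1, 42.8 and 52.7 against 6.34, 7.44 and 8.92 CPM; log2 difference 2.66 ± 0.25, adjusted p = 1.89e-07), Ltb (2.74), Tnfsf14 (2.74), Vegfa (4.91; 4.29 with the length offset) and Bmp2 (5.04) were higher on the log2 scale. Tgfb3 was lower (-2.58) at under 2 CPM. Il12a, Il10 and Il23a had too few counts to test.

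Chemokines split likewise, 6 higher and 3 lower of 15 (60% called, against 45.7% of all genes). Cxcl9, which draws T and NK cells through CXCR3, measured 372, 643 and 333 CPM in CD8+ and 26.2, 44.1 and 29.5 CPM in CD4+ libraries (log2 difference -3.75 ± 0.66, adjusted p = 0.00019), with library 2 the highest of each population. Ccl22 (65.1, 61.2 and 66.1 against 12, 16.4 and 14.4 CPM; log2 difference -2.17 ± 0.22, adjusted p = 5.46e-07) and Cxcl16 (-0.63) were also lower. Ccl3 (91.6, 72.2 and 82 against 7.44, 6.08 and 6.72 CPM; log2 difference 3.60 ± 0.27, adjusted p = 1.29e-08), Ccl4 (1.83), Ccl5 (0.95), Ccl6 (1.50), Ccl9 (2.82) and Cxcl2 (3.97) were higher. The list median was 0.36.

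Receptors that place cells in the spleen were divided evenly, 8 higher and 8 lower of 22. Ccr6, the receptor for CCL20, was higher (30.6, 27.1 and 24.6 against 0.758, 0.573 and 0.453 CPM; log2 difference 5.50 ± 0.28, adjusted p = 1.27e-10), and so was the chemerin-binding Ccrl2 (322, 290.1 and 308 against 29.5, 23 and 23.1 CPM; log2 difference 3.61 ± 0.13, adjusted p = 2.37e-12). The oxysterol receptor Gpr183 (EBI2), which guides CD4+ cDC2 to the bridging channels, measured 129, 114 and 124 against 55.1, 37.1 and 61.8 CPM (log2 difference 1.25 ± 0.18, adjusted p = 2.33e-05). The libraries did not overlap for any of these. C5ar1, for the complement fragment C5a, was higher at under 2 CPM (log2 difference 4.15 ± 0.83, or 5.02 without CD8+ library 2). Lower were Cxcr3 (5.5, 4.11 and 3.54 against 47, 70.3 and 49.6 CPM), Ccr1 (4.77, 3.7 and 3.67 against 33.5, 17.5 and 25.2 CPM) and Ccr9 (27.9, 22.4 and 30.8 against 63.8, 62.8 and 67.2 CPM), with log2 differences of -3.66, -2.65 and -1.26. Ccr7, for entry into T cell zones, overlapped at 983, 767 and 619 against 845, 655 and 586 CPM (0.18 ± 0.22, adjusted p = 0.521).

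Integrins and adhesion molecules were lower for 14 and higher for 10 of 31. Itga1 (14.8, 16.4 and 17.3 against 0.0604, 0.0507 and 0.134 CPM; log2 difference -7.55 ± 0.33, adjusted p = 2.19e-11), Itga8 (-3.63) and Itga6 (-3.22) were lower with Itgae, as was Itgal (LFA-1) at -0.96. The common beta chain Itgb2, which pairs with Itgal, Itgam and Itgax, was higher (767, 759 and 777 against 453, 442 and 466 CPM; log2 difference 0.76 ± 0.06, adjusted p = 4.18e-08). Cdh17, a cadherin, measured 18.3, 21.3 and 13 against 1.17, 0.859 and 1.51 CPM (log2 difference 3.89 ± 0.51, adjusted p = 9.01e-06). Cadm3 measured 182, 179 and 166 against 27.2, 21.7 and 29.2 CPM (log2 difference 2.76 ± 0.12, adjusted p = 2.38e-11), opposite to Cadm1.

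Growth factor and cytokine receptors were higher for 20 of 38 and lower for 3 (60.5% called, against 45.7% of all genes). Csf1r measured 424, 347 and 368 CPM in CD4+ and 71.8, 56.7 and 92.3 CPM in CD8+ libraries (log2 difference 2.37 ± 0.16, adjusted p = 3.47e-09). Csf3r, the G-CSF receptor, measured 16.7, 16.6 and 15.5 and 0.482, 0.358 and 0.302 CPM (log2 difference 5.38 ± 0.27, adjusted p = 9.83e-11; 5.98 with the length offset). Il2rg, the chain shared by several interleukin receptors, measured 310.2, 329 and 302 and 102, 90.2 and 108 CPM (log2 difference 1.65 ± 0.09, adjusted p = 1.83e-10). Receptors for GM-CSF (Csf2ra at 0.14 ± 0.22) and for interferon (Ifnar1 at -0.09 ± 0.07, Ifngr1 at -0.19 ± 0.10) did not pass, though Ifnar2 was higher (0.95). Flt3, Tnfrsf21 (-0.76) and Tnfrsf9 (-1.06) were the lower ones. Of genes for purines and lipid mediators, 15 were higher and 7 lower of 29. Ptgs2 (COX-2) measured 763, 579.8 and 626 against 50.3, 36.1 and 45.5 CPM (log2 difference 3.90 ± 0.25, adjusted p = 1.41e-09). The UDP-glucose receptor P2ry14 measured 6.71, 6.09 and 7.54 against 154, 164 and 167 CPM (log2 difference -4.58 ± 0.20, adjusted p = 2.28e-11). Lpcat2, which makes platelet-activating factor, was higher (2.75) and the prostaglandin receptor Ptger2 lower (-5.39). Alox5, the 5-lipoxygenase, had 2 counts over the CD4+ libraries and 1.58, 1.86 and 1.44 CPM in the CD8+ libraries, a ratio of 41.7 (11.1 to 352).

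Immediate early genes were higher in CD4+ cells for 16 of 18 and lower for 0, with a median log2 difference of 1.33. Egr2 measured 159, 112 and 157 CPM in CD4+ and 23.6, 19.8 and 23.3 CPM in CD8+ libraries (log2 difference 2.68 ± 0.25, adjusted p = 1.4e-07). The phosphatase Dusp1 measured 810.3, 712 and 712 and 138, 119.8 and 169 CPM (log2 difference 2.39 ± 0.23, adjusted p = 2.29e-07). Fos measured 867, 624 and 981 and 402, 247 and 473 CPM (log2 difference 1.14 ± 0.25, adjusted p = 0.00126). Ier3 had the same direction (2.29). CD4+ library 1 was the highest of its group for Egr2 and Dusp1, and library 3 for Fos. Jund overlapped (0.97 ± 0.52, adjusted p = 0.145). Maturation genes of migratory cDC went both ways, 13 higher and 7 lower of 25, with Fabp5 (3.00) and Traf1 (0.84) higher and Serpinb9 (-2.27) and Cacnb3 (-1.70) lower.

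Cell cycle genes were mostly not called, 22 of 37, with 13 higher and 2 lower, and the share called was under that of all genes. The D cyclins were among the higher. Ccnd1 measured 1485, 1713 and 1363 CPM in CD4+ and 338, 396 and 382 CPM in CD8+ libraries (log2 difference 2.03 ± 0.11, adjusted p = 3.76e-10). Ccnd2 measured 78.8, 110.2 and 69.2 and 14.5, 17.1 and 8.99 CPM (log2 difference 2.67 ± 0.39, adjusted p = 2.81e-05; 4.48 with the length offset). Mki67, a marker of cycling cells, did not pass (42, 47.4 and 60.1 against 36.3, 42.3 and 42.9 CPM; 0.30 ± 0.20, adjusted p = 0.234).

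Glycolytic genes were lower for 14 and higher for 8 of 24. The hexokinase Hk3 measured 9.49, 11.7 and 7.81 CPM in CD4+ and 187, 213 and 147 CPM in CD8+ libraries (log2 difference -4.23 ± 0.22, adjusted p = 1.27e-10). The aldolase Aldoc (-2.60) and the phosphofructokinase Pfkp (-2.22) were lower with Pgk1 (-1.19), Pgam1 (-0.94) and Ldha (-0.76). The transporters were on the other side: the lactate exporter Slc16a3 (42.5, 35.1 and 30.5 against 7.02, 7.23 and 6.72 CPM; log2 difference 2.36 ± 0.14, adjusted p = 8.13e-10) and the glucose carriers Slc2a3 (2.01) and Slc2a1 (0.84) were higher, with Ldhb (1.84). Of 46 nuclear genes of oxidative phosphorylation, 12 were lower and 1 higher, a smaller share than that of all genes, led by cytochrome c (Cycs, -0.63), Atp5g1 (-0.51) and Ndufa9 (-0.48). Genes of cholesterol handling gave 6 higher and 10 lower of 28 (57.1% called, against 45.7% of all genes). The liver X receptor Nr1h3 led the higher (15.5, 18.2 and 16.6 against 1.52, 1.07 and 1.51 CPM; log2 difference 3.61 ± 0.28, adjusted p = 1.55e-08) before Lpl (3.21) and Abca1 (1.96). The synthesis enzymes Fdps (-1.10), Pmvk (-1.01) and Nsdhl (-0.89) were among the lower. Iron genes gave 5 higher and 3 lower of 13 (61.5% called). Spic, given above, and the ferritin chain Fth1 (0.81) were higher. The iron exporter Slc40a1 (13.5, 9.99 and 14.2 against 5.23, 1.93 and 4.08 CPM; 1.74) lost its call without CD8+ library 2 (adjusted p = 0.0508) and with the length offset (adjusted p = 0.529). Slc11a1 (NRAMP1), which pumps iron and manganese out of phagosomes, measured 134, 138 and 124 CPM in CD8+ and 27.1, 21.8 and 21.6 CPM in CD4+ libraries (log2 difference -2.49 ± 0.12, adjusted p = 5.6e-11).

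Adam10 measured 41.8, 41.6 and 45.9 CPM in KO CD4+ and 28.7, 31 and 36.4 CPM in KO CD8+ libraries, each below every WT library of the same population. The labels do not say which bases of the gene were removed, and counts per gene do not show the exons they come from. The same contrast in the KO libraries, which share no sample with the WT comparison, gave 6801 called genes (50.9%). Of the 1253 genes at least 2-fold higher in WT CD4+ cells, 1046 (83.5%) were called higher in KO CD4+ cells too and 17 were called lower. Of the 1097 at least 2-fold lower, 757 (69%) were called lower in KO and 77 higher. The difference between the differences was tested directly and passed for 2969 genes (22.2%), 1689 (12.6%) with a higher and 1280 (9.58%) with a lower value in KO. Xcr1 and Irf8 were among those that did not pass (interaction 0.37 ± 0.38, adjusted p = 0.549, and 0.30 ± 0.20, adjusted p = 0.342). Esam is an example of the others: it measured 1.38, 4.1 and 1.79 CPM in KO CD4+ and 1.37, 2.37 and 2.21 CPM in KO CD8+ libraries, a log2 difference of 0.31 against 3.07 in WT (interaction -2.77 ± 0.40, adjusted p = 8.95e-05). Ccr2, lower in WT CD4+ cells, had a KO difference of 0.50 (interaction 1.42 ± 0.15, adjusted p = 3.99e-06), and Cx3cr1 one of 5.63 (interaction 4.99 ± 0.29, adjusted p = 1.7e-08). All 25 cDC1 hallmark genes were called lower in KO as well (25.1% of all genes were), with a median of -4.14. The interaction was called higher for 12 and lower for 3 of them, so that several differed in size between WT and KO. Of the 27 cDC2 hallmark genes, 24 were higher and 0 lower in KO (25.8% of all genes were higher), with a median of 4.72, and the interaction was called higher for 17 and lower for 1 of them. Of the 7 Notch targets 3 were higher and 0 lower in KO, a share near the 50.9% called over all genes, of which 25.8% were higher. Their median was 0.151 in KO, against 1.138 in WT. The interaction was called higher for 2 and lower for 0 of them. Dtx1 had a KO difference of 3.22 (interaction -2.40 ± 1.47, adjusted p = 0.286).

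**Figure D5:**
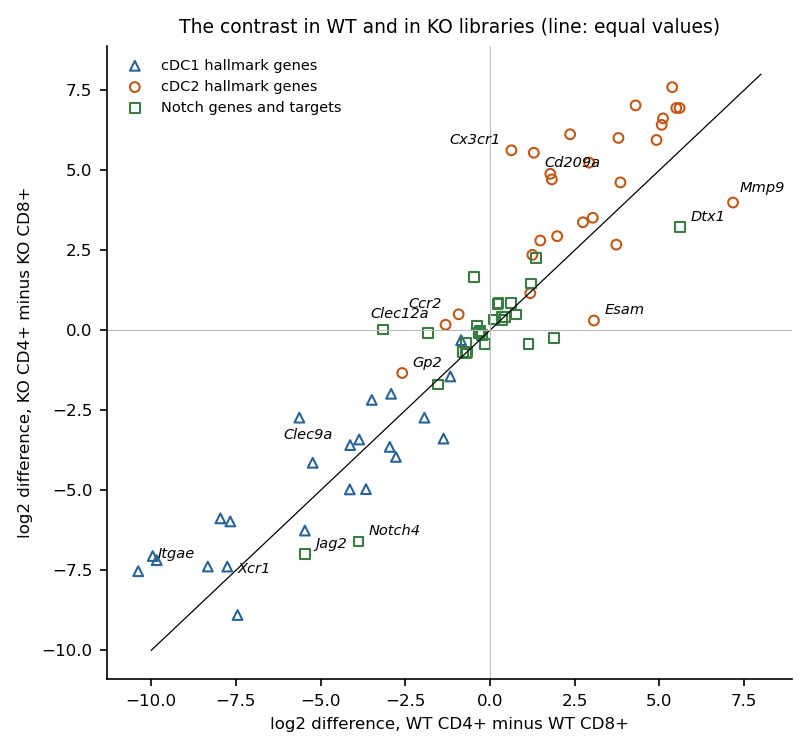
Log2 difference between CD4+ and CD8+ cells in WT (horizontal axis) and in KO libraries (vertical axis) for the cDC1, cDC2 and Notch genes of the lists, 1 point per gene with a count in every group (23 cDC1, 27 cDC2 and 28 Notch genes; 3 with a group at 0 are not drawn), with the line of equal values. cDC1 genes lie at the lower left, on both sides of the line. The interaction was called higher (above the line) for 12 and lower for 3 of the 25 genes of that list. Most cDC2 genes lie above the line, and Esam, Mmp9 and Dtx1 lie below it.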

How the data were processed

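The deposited tables give, in each of 18 libraries, estimated counts for 117135 mouse transcripts and TPM values (counts scaled by transcript length and library total) for 84086 of them, which the authors made with Salmon 0.14.1 on GRCm38, after FastQC 0.11.8, per the submitters' processing notes. The deposited estimated counts were summed per gene name and rounded; 18 names shared by several gene identifiers were merged, and 152 transcripts without a name (at most 0.17% of a library's counts) were left out. Deposited TPM values were summed likewise.

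Libraries were grouped by their labels. edgeR 4.0.16 (R 4.3.3) was fitted to all 18 libraries in 6 groups: TMM scaling, filterByExpr (13355 genes kept), quasi-likelihood tests (two-sided, 12 residual degrees of freedom) and Benjamini-Hochberg adjustment over all genes. The KO contrast and the difference between the differences came from the same fit. DESeq2 1.42.0, limma 3.58.1 on log2(TPM + 1) and log2(TPM + 0.1), other scalings and filters, a length offset from the ratio of counts to TPM, smaller fits, a replicate block and leaving out each library were alternatives. The fit was tested on simulated counts. Counting intervals are exact at 95% and cover counting error only; a group at 0 was given a floor of 3 counts over its 3 libraries. Same-numbered KO CD4+ and CD8+ libraries deviated together (r = 0.149, 0.172 and 0.181). The main fit used no pairs in any contrast, and the library number entered only in the replicate block.

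The gene lists (884 of 896 symbols found) and the genes named were chosen with earlier results of these data known. Named are the 15 called genes with the largest difference in each direction (mean of at least 5 CPM, libraries not overlapping, no predicted genes), the leading 3 of a list in each direction, the identity and sort genes and the 5 largest interactions of each sign; further members were named after their values were seen, to describe a pathway. A few genes that the rule covers are not reported here. Promoters came from RefSeq on GRCm38.p6.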

Additional observations from a re-analysis of the deposited data

Results flagged for a closer look

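For 2969 genes the difference between CD4+ and CD8+ cells itself differed between WT and KO libraries (interaction test in edgeR, adjusted p under 0.05). The 5 largest of each sign are given here as values. Where a group is at 0 counts, the fitted interaction depends on the small count that edgeR adds and is no bound.

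Of the positive ones, the pseudogene Hdac1-ps (interaction 12.23, adjusted p = 0.00364) was at 0 in the WT CD4+ libraries, at 5.23, 4.58 and 14.1 CPM in WT CD8+, at 4.92, 15.7 and 4.3 CPM in KO CD4+ and at 1.89, 3.21 and 0 CPM in KO CD8+ libraries. Klrb1a, a lectin-like receptor of NK cells (9.31, adjusted p = 0.000179), stayed under 0.3 CPM in the 6 WT libraries and measured 6.09, 7.12 and 9.1 CPM in KO CD4+ and 0 in KO CD8+ libraries. Galnt9, a glycosyltransferase (7.87, adjusted p = 0.00102), measured 0.363, 0.558 and 0.334 CPM in WT CD4+, 8.19, 12.6 and 10.2 CPM in KO CD4+ and 0 in KO CD8+ libraries. In WT cells its CD8+ level rests on 3 counts, a CD4+ to CD8+ ratio of 5.97 (1.79 to 31.2). Cxcl13, the chemokine that draws B cells to follicles (7.29, adjusted p = 5.25e-05), stood at 0.0604, 0.152 and 0.0668 against 0.275, 0.143 and 0.227 CPM in WT and at 10.8, 6.04 and 9.25 against 0.0652, 0 and 0.26 CPM in KO libraries. Pde2a, a cyclic nucleotide phosphodiesterase (7.25, adjusted p = 0.0286), stood at 5.68, 2.28 and 2.87 against 0.413, 0.286 and 0.604 CPM in WT and at 16.2, 5.35 and 8.74 CPM against 0 in KO libraries.

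Of the negative ones, Cdh17 (-5.34, adjusted p = 0.000318) was higher in WT CD4+ cells, as given above, and measured 0.166, 0.683 and 0.0717 CPM in KO CD4+ and 0.391, 0.697 and 1.56 CPM in KO CD8+ libraries. Cltrn, a membrane protein (-4.76, adjusted p = 0.00776), stood at 0.0604, 0.203 and 0.2 against 8.06, 7.51 and 7.25 CPM in WT and at 0 against 8.15, 13 and 9.55 CPM in KO libraries. Dhrs9, a retinol dehydrogenase (-4.29, adjusted p = 0.000124), stood at 1.21, 2.69 and 0.868 against 2.2, 3.86 and 2.8 CPM in WT and at 0.664, 0.0569 and 0.358 against 12.9, 12.2 and 14.3 CPM in KO libraries. The orphan receptor Gpr82 (-4.25, adjusted p = 6.61e-05) turned direction, from 18, 23.5 and 19.8 against 4.2, 5.01 and 3.63 CPM in WT to 6.64, 1.88 and 2.65 against 18.6, 15.3 and 11.1 CPM in KO libraries. Gpr161, a receptor of the primary cilium (-3.95, adjusted p = 0.00741), stood at 4.96, 4.36 and 6.54 against 0.482, 0.501 and 1.21 CPM in WT and at 0.0553, 0.228 and 0 against 0.13, 0.349 and 0.195 CPM in KO libraries.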

How the results depend on the processing

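The number of genes called in WT (6103) was 6051 with DESeq2, 5519 to 6119 under the other scalings and filters, 6101 with the 6 libraries alone, 6319 with the 9 WT libraries, 4627 with the length offset and 5307 to 5705 with 1 library left out. It was 4013 with limma on log2(TPM + 1) and 4063 on log2(TPM + 0.1), from 12063 genes; the KO count (6801) was 4368 and 4484 there. The interaction count (2969) was 1434, 1444 and, with the length offset, 1808. The cause of these changes was not tested. Of the 296 called genes of the text, 268 kept their call in all 17 alternatives that gave a value, and none changed sign; 13 lost it with 1 library left out, 15 with the length offset and 20 with each TPM scale, among them Abca1, Marchf1 and Runx3 on both and Vcam1 on log2(TPM + 0.1). The length offset moved 19 by over 1.5-fold.

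Uncalled genes changed sign as follows. Etv6 was at 0.22 on both TPM scales and at 0.21 with the length offset, and Cd163 at 0.02 on log2(TPM + 1) and 0.11 with the offset. With 1 library left out, log2 differences ran from -0.45 to 0.27 for Cd163, -0.03 to 0.02 for Cd74, -0.09 to 0.04 for H2-D1, -0.06 to 0.05 for Mavs and -0.06 to 0.33 for Tlr4.

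With the number in the labels as a replicate block, 6612 genes were called in WT, 7269 in KO and 3545 for the interaction. Same-numbered WT libraries correlated at 0.052, 0.148 and 0.123 and each correlated best with its own number, a hint from the data and not from the design, so the WT numbers were not taken as pairs. Under the block Zbtb46 lost its call (adjusted p = 0.062) and 8 uncalled genes gained one: Adam10 (0.46, adjusted p = 0.000107), Batf3, Bcl6, H2-K1, Irf7, Mki67, Myd88 and Stat2. Counts under about 5 CPM limit the precision of Nrarp, Cd3e, C5ar1, Fcgr1 and Fcrl5.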

Other observations

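Chosen after their values were seen, 15 genes differed at least 3-fold between 1 library number and the other 2 in both WT populations alike (5 for number 1, 2 for number 2 and 8 for number 3), 10 of them also in the WT CD4-CD8- libraries. Of these, 12 are pseudogenes or predicted genes, such as Rpl34-ps1 at 76.7, 473 and 651 CPM in CD4+ and 44.2, 399 and 584 CPM in CD8+ libraries. The other 3 are Gbp2b, an interferon-induced GTPase (0.181, 12.1 and 17.8 CPM in CD4+, 1.17, 19.8 and 14.4 CPM in CD8+ libraries), the peptide transporter gene Slc15a2 (4.96, 0.254 and 3.27 CPM, and 4.96, 0.429 and 2.42 CPM), and Ctse, an endosomal protease (17.8, 15.2 and 1.74 CPM, and 87.5, 82.4 and 8.92 CPM). In the CD4-CD8- libraries Gbp2b measured 0.121, 22.4 and 23.8 CPM, and Ctse 50.6, 38 and 5.18 CPM, so that the low library had the same number in all 3 WT populations.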
